A study of Macaca mulatta with 45 samples.

Results

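The hippocampus was compared with the dorsolateral prefrontal cortex (Brodmann area 46) in the 5 control rhesus macaques of a brain irradiation study, by RNA sequencing. Of the study's 45 libraries, made from 3 brain regions of 15 animals, the comparison took the 10 that the labels assign to these regions of control animals, as 5 pairs from the same animals, and all genes. The controls were themselves irradiated on the thorax alone, with 10 Gy and a labelled dose to the brain of 0.1 Gy. The same regions were also read in 5 animals given total body irradiation (TBI, once, at 6.75, 7.2 or 8.05 Gy, with necropsy 6 to 9 years later) and in 5 given fractionated whole brain irradiation (fWBI, 40 Gy as 8 fractions of 5 Gy, 12 months before necropsy). White matter libraries were not used in the main comparison, and the labels used here give neither the age nor the sex of the animals. All animals were perfused with saline before frozen brain slices were dissected, so each library is a bulk piece of tissue. In such samples fewer cells of a type and less RNA per cell cannot be told apart.

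The hippocampus is the folded medial edge of the cerebral cortex, in which granule cells of the dentate gyrus send their axons to the pyramidal cells of Ammon's horn. It lies against the ventricle, with its ciliated ependymal lining and the choroid plexus, and its dentate gyrus is known as a site where new neurons can form. The dorsolateral prefrontal cortex is layered neocortex, known for working memory, in which upper layers connect cortical areas with each other and deep layers project to targets below the cortex.

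Total counts ran from 6625435 to 10685965 per library. Levels are given as CPM, counts scaled to a common library size, in the order of animals 1 to 5, and can be compared between libraries but not between genes, because gene lengths were not used. Differences are log2 fold changes of hippocampus over cortex with their standard error (SE), and each adjusted p comes from the quasi-likelihood test of edgeR, after Benjamini-Hochberg adjustment over all genes tested, with animal as a block and a threshold of 0.05. The SE was worked back from the fold change and the F statistic of this test, and it is not the spread over the 5 animals. In the first principal component, which held 45.7% of the variance, all 5 hippocampal libraries lay apart from all 5 cortical ones. The second component (19.8%) ran across both regions, from cortex 1 and hippocampus 3 at one end to cortex 2, hippocampus 2 and cortex 4 at the other.

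Some lists of region markers went with both labels and others overlapped, and 2 hippocampal libraries stood apart. The mean of dentate granule cell genes was 5.26 to 5.80 log2 CPM in hippocampus and 4.12 to 4.36 in cortex. That of upper-layer neocortical genes was 3.96 to 4.22 in hippocampus and 4.93 to 5.63 in cortex. FREM3, a gene of upper cortical layers, was under 1 CPM in every hippocampal library. Means overlapped for medial pallium regulators (4.49 to 4.98 in hippocampus, 4.37 to 4.84 in cortex) and for deep-layer genes (4.11 to 4.38 and 4.16 to 4.92). Hippocampus 2 held the most choroid plexus RNA: its mean over the choroid plexus list was 6.72 log2 CPM, against 3.32 to 4.88 in the other hippocampal libraries and 3.27 to 3.55 in cortex, and 791 of the 937 hippocampal counts of the choroid plexus folate receptor FOLR1 came from it. Hippocampus 3 held the most RNA of striatal neurons, with a list mean of 6.18 log2 CPM against 3.72 to 4.06 in the other hippocampal libraries and 4.44 to 4.79 in cortex. Of the 155 hippocampal counts of DRD2, the dopamine receptor of one class of striatal neurons, 120 came from this library. It also had the highest myelin mean (7.52 log2 CPM, others 5.36 to 6.47, cortex 4.27 to 6.19). Both libraries had the highest ependymal means, 4.40 and 3.83, against 2.37 to 2.99 in the other 3 hippocampal libraries and 2.10 to 2.21 in cortex. Of 10 listed blood cell genes 6 had an ID, and none had enough counts to be tested. The part of this RNA in other differences was not tested, and counts without animals 2 and 3 are given beside the lists where they differ by over 1.5 times.

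**Figure D1:**
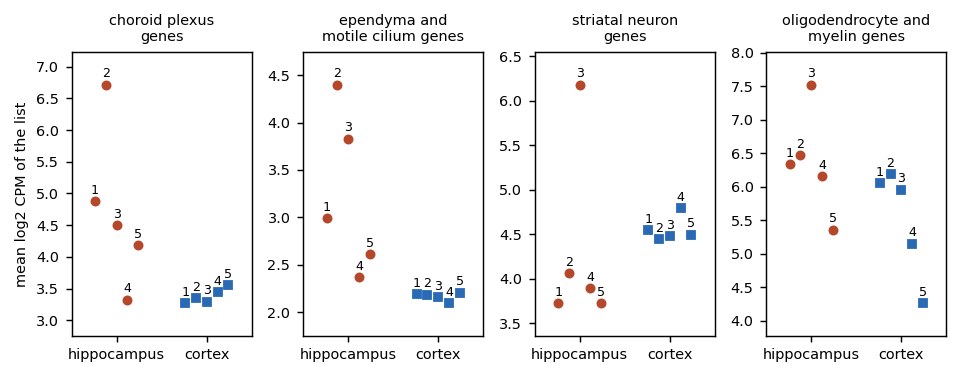
Mean log2 CPM (y axis) of 4 lists of marker genes in each control library, with circles for hippocampus, squares for prefrontal cortex and the animal's number above each point. Hippocampus 2 has the highest choroid plexus mean (6.72) and hippocampus 3 the highest striatal mean (6.18) and myelin mean (7.52).

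Of 14872 genes tested, 3396 differed between the regions, 22.8% of them: 1674 (11.3%) were higher and 1722 (11.6%) lower in the hippocampus. Of these calls 3238 had the same direction in all 5 animals. The share of all called genes whose regions did not overlap was not counted, so such counts below have no general rate beside them. Calls and overlap come from the same libraries, and a lack of overlap adds no separate support to a call. A difference of more than 1 on the log2 scale, beside the call, was seen for 547 genes that were higher and 673 that were lower, and the median over all genes tested was 0.01. Without any one animal the count ran from 2275 to 4016, and without both animals 2 and 3 it was 1233, of which 1188 were among the 3396. With the myelin mean of each library as a covariate it was 977. Where a list's count below moved by over 1.5 times without animals 2 and 3, or in a fit of all 15 control libraries with white matter included, that count follows it.

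The genes with the largest rises in the hippocampus included secreted factors, receptors and a water channel. MFAP5, which codes for a glycoprotein of elastic microfibrils, was at 29.0, 1.49, 4.78, 43.1 and 40.8 CPM in hippocampus 1 to 5 and had no count in any cortical library. Taking 3 counts over the cortical group as the limit of a count of 0, its excess in the hippocampus was 326-fold. The lower limit of the counting interval was 264 (adjusted p = 0.000117). NEUROG2, a proneural transcription factor, was at 3.20, 2.07, 2.19, 3.28 and 2.53 CPM and likewise had no cortical count. With the same limit of 3 counts its excess was 38.1-fold (lower limit of the counting interval 30.4, adjusted p = 0.00156). MFAP5 was lowest in hippocampus 2 and 3, while NEUROG2 varied little between animals.

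AQP3, a channel for water and glycerol, was at 43.9, 64.1, 34.5, 35.0 and 52.0 CPM in hippocampus and 0.633, 0.596, 0.479, 0.752 and 0.347 CPM in cortex. Every hippocampal library stood far above every cortical one, with a log2 fold change of 6.34 ± 0.20 (adjusted p = 1.58e-06). Neurotensin (NTS), a secreted peptide, was at 29.9, 19.9, 6.97, 13.1 and 24.7 CPM against 0.127, 0.298, 0.383, 0.602 and 0.232 CPM, again without overlap (5.71 ± 0.37, adjusted p = 2.04e-05). NTF3, the growth factor neurotrophin-3, was at 5.91, 2.30, 1.99, 2.60 and 8.20 CPM in hippocampus and had 2 counts in all of cortex, a ratio of 90 with a 95% counting interval of 24.5 to 749 (adjusted p = 2.94e-05). CHRNB4, a subunit of nicotinic acetylcholine receptors, was at 2.34, 1.38, 3.18, 2.74 and 3.26 CPM and had 1 cortical count, a ratio of 113 (19.9 to 4510, adjusted p = 0.000122). The remaining large rises were in PRLR, the prolactin receptor (4.86 ± 0.73), FIBCD1, a marker of Ammon's horn (4.30 ± 0.29), the ciliary gene CFAP54 (4.13 ± 0.33), the fatty acid enzyme SLC27A2 (4.06 ± 0.34), the transcriptional cofactor DACH2 (4.02 ± 0.21) and the bestrophin gene BEST3 (4.01 ± 0.56). PRLR, also a member of the choroid plexus list, was at 45.9, 364, 26.1, 6.16 and 15.4 CPM in hippocampus, highest in hippocampus 2, and at 1.15 to 2.26 CPM in cortex. Without animals 2 and 3 its log2 fold change was 3.34 (adjusted p = 0.023).

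The genes with the largest falls were at low levels in every hippocampal library. SPINK5, a serine protease inhibitor best known from skin, had no count in any hippocampal library and was at 7.47, 9.24, 4.21, 13.5 and 12.0 CPM in cortex, at least 126-fold lower in the hippocampus (adjusted p = 0.000305). The desmosomal cadherin DSG3 had 1 hippocampal count and was at 8.86, 2.09, 3.83, 5.26 and 7.06 CPM in cortex, a cortical excess of 221 (39.2 to 8750, adjusted p = 2.97e-05). FREM3, an extracellular matrix protein of upper-layer neurons, was at 0.862, 0.115, 0.498, 0.821 and 0.362 CPM in hippocampus and 44.4, 22.8, 64.9, 47.8 and 76.1 CPM in cortex (-6.58 ± 0.25, adjusted p = 3.17e-06). MEPE, a phosphoglycoprotein of mineralised matrix, was at 1.23, 0.344, 0.995, 0.137 and 0.482 against 33.7, 54.0, 84.5, 72.6 and 65.1 CPM (-6.52 ± 0.34, adjusted p = 7.79e-06). In none of these 4 genes did the regions overlap, and cortex 2 was the lowest cortical library for FREM3 and DSG3.

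MCHR2, a receptor for melanin-concentrating hormone, was at 0 to 0.369 CPM in hippocampus and 7.85 to 16.1 CPM in cortex (-6.65 ± 0.50, adjusted p = 3.51e-05). TESPA1, a protein studied in thymocytes, was at 3.94, 2.64, 4.48, 3.28 and 2.05 CPM in hippocampus and 94.3, 91.4, 104, 122 and 115 CPM in cortex (-5.00 ± 0.19, adjusted p = 3.17e-06). The potassium channel subunit KCNS1 was at 1.97, 0.804, 1.79, 1.37 and 1.81 against 113, 26.4, 45.2, 31.0 and 26.1 CPM (-4.81 ± 0.25, adjusted p = 7.79e-06), with cortex 1 far above the other cortical libraries. PTGS2, the inducible cyclooxygenase of prostaglandin synthesis, was at 1.85, 1.38, 2.69, 2.87 and 0.844 against 29.2, 23.6, 40.7, 36.8 and 36.0 CPM (-4.13 ± 0.22, adjusted p = 7.79e-06). THEMIS (-4.38 ± 0.40), FSTL4 (-4.21 ± 0.28) and CD300E (-3.69 ± 0.29) were the others described. None of these 23 genes overlapped between the regions, and all 23 kept their call without any one animal. They were picked from these same libraries for large differences with all 5 animals in 1 direction. Neither result is therefore separate support.

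**Figure D2:**
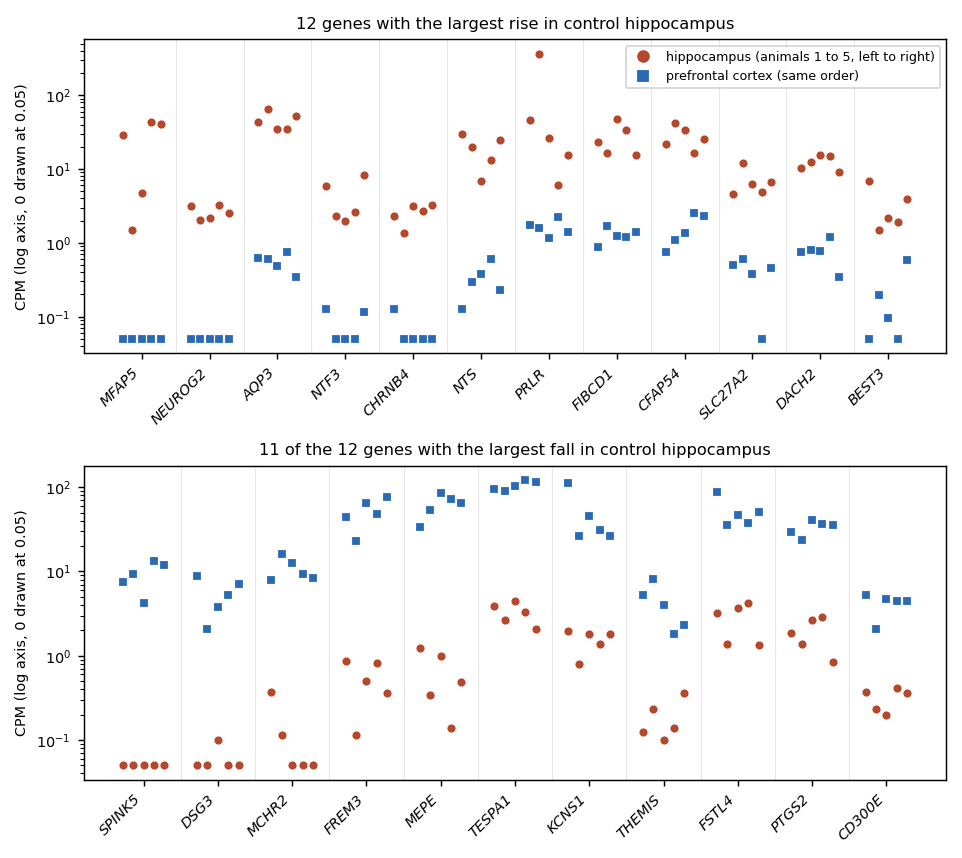
CPM (log axis, 0 drawn at 0.05) of the 12 genes with the largest rise (top) and 11 of the 12 with the largest fall (bottom) in control hippocampus, with circles for hippocampus and squares for cortex and the animals from left to right. The regions overlap in none of the 23 genes, which were picked for large differences in these same libraries. PRLR is highest in hippocampus 2 (364 CPM) and KCNS1 in cortex 1 (113 CPM).

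Dentate granule cell genes that passed the test in the main fit all went one way. Of 9 tested members 7 were higher and 0 lower, with a median of 1.25, and all 7 kept the call without any one animal. By limma-voom 8 were higher and 1 lower, and without a filter on low counts 8 of 11 were higher and 2 lower. Untested in the main fit were LCT, with 3 counts in hippocampus and 49 in cortex, and TDO2, with 9 and 2. PROX1, the transcription factor that specifies granule cells, was at 61.3, 32.4, 46.5, 69.9 and 115 CPM in hippocampus and 20.3, 9.34, 12.2, 11.9 and 14.1 CPM in cortex (2.18 ± 0.21, adjusted p = 0.000134). The cation channel TRPC6 was at 20.1, 21.4, 11.9, 19.0 and 24.4 against 1.90, 2.58, 1.34, 2.41 and 1.62 CPM (3.28 ± 0.18, adjusted p = 8.68e-06), and the guanine nucleotide exchange factor DOCK10 at 205, 179, 253, 179 and 252 against 77.3, 66.1, 78.0, 51.0 and 45.4 CPM (1.76 ± 0.16, adjusted p = 9.73e-05). Every hippocampal library was above every cortical one in these 3 genes and in C1QL2 (1.26 ± 0.17, adjusted p = 0.000913) and C1QL3 (1.25 ± 0.19, adjusted p = 0.00164), which code for secreted synaptic proteins of the C1q family, and in NPNT (0.96 ± 0.21, adjusted p = 0.00994), a matrix ligand of integrins. SEMA5A, a semaphorin, was also higher (1.25 ± 0.20, adjusted p = 0.00213), with 1 hippocampal library within the cortical range. The opioid precursor PDYN did not pass the threshold (0.75 ± 0.25, adjusted p = 0.0611) but was called higher without animal 2 (adjusted p = 0.0103). The desmosomal gene DSP did not pass either (-1.33 ± 0.51, adjusted p = 0.0975). It ranged from 3.15 to 12.6 CPM in hippocampus and from 5.32 to 34.9 CPM in cortex, and was called lower without animal 1 (adjusted p = 0.0404) or 3 (adjusted p = 0.031).

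Ammon's horn genes were divided. Of 9 tested pyramidal cell markers 4 were higher and 2 lower (median 0.61), and 1 was lower without animals 2 and 3 or with all 15 control libraries. FIBCD1 was at 23.5, 16.7, 48.1, 34.1 and 15.7 CPM in hippocampus and 0.886, 1.69, 1.24, 1.20 and 1.39 CPM in cortex (4.30 ± 0.29, adjusted p = 2.24e-05). RGS14, a regulator of G protein signalling that marks the field between the main pyramidal fields, was at 191, 156, 310, 145 and 133 against 28.6, 30.3, 32.3, 50.1 and 58.1 CPM (2.22 ± 0.28, adjusted p = 0.000653). TSPAN18, a tetraspanin, was higher (3.89 ± 0.48, adjusted p = 0.000545), as was the kainate receptor subunit GRIK4 (0.86 ± 0.20, adjusted p = 0.0125). The adhesion gene AMIGO2, used in rodents as a marker of the same narrow field, was lower: 3.57, 4.48, 4.18, 4.11 and 4.22 CPM in hippocampus against 10.1, 15.1, 18.8, 19.6 and 16.4 CPM in cortex (-1.93 ± 0.16, adjusted p = 6.44e-05). GRIK1, another kainate receptor subunit, was lower as well (-0.73 ± 0.15, adjusted p = 0.00659). Of the genes that passed in this group, GRIK4 alone overlapped between the regions, with cortex 1 (19.1 CPM) above hippocampus 2 (17.9 CPM).

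Regulators of the medial pallium, the embryonic tissue that forms the hippocampus, were also mixed: of 10 tested, 4 were higher and 2 lower (median 0.16), or 2 and 1 without animals 2 and 3. ZBTB20, a repressor needed to form hippocampal pyramidal neurons, was at 167, 105, 138, 144 and 180 CPM in hippocampus and 77.3, 35.7, 48.4, 39.3 and 36.2 CPM in cortex (1.67 ± 0.16, adjusted p = 0.000147). NR3C2, the mineralocorticoid receptor, was at 110, 82.9, 108, 98.7 and 109 against 62.3, 56.5, 52.3, 54.6 and 45.6 CPM (0.90 ± 0.12, adjusted p = 0.00068), and ID4, an inhibitor of basic helix-loop-helix factors, was higher too (0.82 ± 0.15, adjusted p = 0.00412). The regions did not overlap in these 3 genes. The nuclear receptor NR2F2 was called higher (0.66 ± 0.21, adjusted p = 0.049) but not without animal 2, 3, 4 or 5 (adjusted p = 0.158, 0.0975, 0.128 and 0.0647). MEIS2 (-1.61 ± 0.23, adjusted p = 0.00125) and NR2F1 (-0.52 ± 0.09, adjusted p = 0.00415), transcription factors that pattern the cortical sheet, were lower. MEIS2 was at 20.3, 16.4, 51.9, 17.9 and 16.2 CPM in hippocampus, highest in the library with the most striatal RNA, and at 72.5, 65.3, 69.2, 63.0 and 67.5 CPM in cortex. Its log2 fold change without animals 2 and 3 was -1.90 (adjusted p = 0.00347).

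Most upper-layer neocortical genes were lower in the hippocampus. Of 12 tested, 8 were lower and 2 higher (median -1.13), and 7 of the 8 kept the call without any one animal. With all 15 control libraries 1 was higher. The transcription factor CUX2 was at 4.80, 5.40, 3.98, 5.20 and 6.87 CPM in hippocampus against 79.6, 29.8, 46.1, 59.1 and 65.1 CPM in cortex (-3.36 ± 0.21, adjusted p = 1.48e-05). RORB, a nuclear receptor of the input layer, was at 15.3, 7.35, 13.3, 13.5 and 10.7 against 114, 64.6, 93.3, 84.2 and 85.6 CPM (-2.89 ± 0.11, adjusted p = 3.17e-06), and CBLN2, a synapse organiser, at 30.8, 21.4, 27.3, 15.5 and 21.3 against 170, 157, 162, 220 and 182 CPM (-2.95 ± 0.19, adjusted p = 1.99e-05). FREM3, given above, had the largest fall of the list. CUX1, the exception, was lower (-0.71 ± 0.19, adjusted p = 0.0239) but not without animal 2 (adjusted p = 0.0523) or 5 (adjusted p = 0.0739). The listed members that went the other way were CARTPT, which codes for a neuropeptide precursor (3.65 ± 0.38, adjusted p = 0.000204), and LAMP5, a lysosome-associated protein of some cortical interneurons (1.29 ± 0.13, adjusted p = 0.000207). CARTPT was at 6.15, 39.8, 16.0, 39.3 and 11.7 CPM in hippocampus and 0.253, 1.59, 0.957, 2.56 and 3.24 CPM in cortex, without overlap.

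Deep-layer genes did not share a direction: of 15 tested, 5 were lower and 4 higher (median 0.19), and 3 were lower without animals 2 and 3. THEMIS was at 0.123, 0.23, 0.0995, 0.137 and 0.362 CPM in hippocampus and 5.32, 8.05, 4.02, 1.80 and 2.32 CPM in cortex (-4.38 ± 0.40, adjusted p = 0.000114). FOXP2, a forkhead factor, was at 2.95, 2.18, 5.57, 2.74 and 0.844 against 18.1, 19.1, 18.9, 16.5 and 17.6 CPM (-2.74 ± 0.30, adjusted p = 0.00026). The relaxin receptor RXFP1 (-1.90 ± 0.38, adjusted p = 0.00641), the T-box factor TBR1 (-1.83 ± 0.26, adjusted p = 0.00105) and TOX (-1.08 ± 0.16, adjusted p = 0.00142) were lower as well. Higher in the hippocampus were BCL11B (1.67 ± 0.19, adjusted p = 0.000355) and FEZF2 (1.00 ± 0.18, adjusted p = 0.0037), transcription factors of neurons that project below the cortex, and NTNG2, a netrin relative (0.98 ± 0.17, adjusted p = 0.00311). BCL11B was at 37.7, 24.1, 50.8, 38.0 and 48.6 CPM in hippocampus and 14.8, 12.5, 12.7, 11.1 and 9.84 CPM in cortex, and all 5 cortical libraries were below all hippocampal ones. HTR2C, a serotonin receptor that the choroid plexus also expresses, was higher (2.20 ± 0.33, adjusted p = 0.00143). It was at 55.8, 385, 46.5, 32.8 and 55.7 CPM in hippocampus and 7.97, 34.1, 19.3, 13.7 and 13.2 CPM in cortex, so that hippocampus 2, with the most choroid plexus RNA, was highest and hippocampus 4 lay within the cortical range. Without animals 2 and 3 the log2 fold change was 2.04 (adjusted p = 0.0148).

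Among regulators of projection neurons 3 of 8 were lower and 2 higher (median -0.27), with 1 higher without animals 2 and 3 and 0 with all 15 control libraries. MEF2C, an activity-dependent transcription factor, was at 348, 247, 203, 310 and 365 CPM in hippocampus and 1300, 1440, 1540, 1630 and 1570 CPM in cortex (-2.37 ± 0.16, adjusted p = 2.09e-05), and LMO4, a LIM-domain cofactor, was lower (-0.83 ± 0.16, adjusted p = 0.00595). FOXP1 was lower (-0.68 ± 0.17, adjusted p = 0.0185), but not without animal 2 (adjusted p = 0.0776) or 5 (adjusted p = 0.0697). NEUROD6 (1.08 ± 0.23, adjusted p = 0.0101) and NEUROD2 (0.96 ± 0.11, adjusted p = 0.000419), basic helix-loop-helix factors of excitatory neurons, were higher without overlap. NEUROD6 was at 236, 242, 191, 177 and 189 CPM in hippocampus and 45.3, 150, 106, 114 and 98.9 CPM in cortex, lowest in cortex 1.

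**Figure D3:**
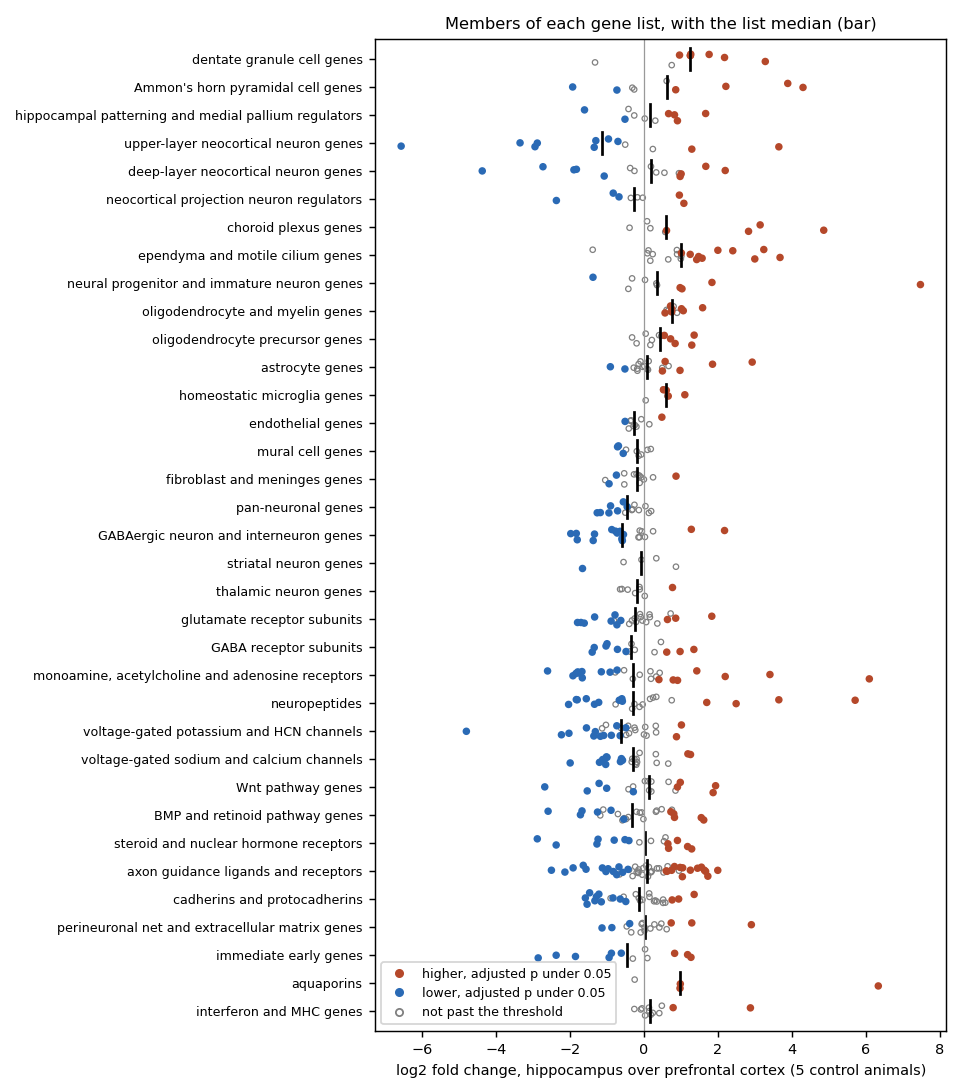
Log2 fold change of hippocampus over prefrontal cortex (x axis) for every tested member of 35 gene lists (y axis), with filled points for adjusted p under 0.05, open points for the rest and a bar at each list's median. Most dentate granule cell genes lie to the right (median 1.25) and most upper-layer genes to the left (median -1.13).

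Many genes of the ventricular lining were higher in the hippocampus, by amounts that varied between animals. Of 20 tested ependyma and motile cilium genes 10 were higher and 0 lower (median 1.01), and without animals 2 and 3 these were 6 and 1. FOXJ1, the master regulator of motile cilia, was at 3.69, 23.7, 8.36, 1.78 and 2.65 CPM in hippocampus, highest in hippocampus 2 and 3, and 0.506, 0.397, 0.383, 0.602 and 0.695 CPM in cortex (3.68 ± 0.56, adjusted p = 0.00158). Its fold change without animals 2 and 3 was 2.13 on the log2 scale (adjusted p = 0.031). The axonemal dyneins DNAH11 (3.24 ± 0.24, adjusted p = 3.28e-05) and DNAH9 (2.40 ± 0.29, adjusted p = 0.000484) and the central-apparatus gene HYDIN (3.00 ± 0.27, adjusted p = 9.92e-05) were higher, with no overlap. HYDIN was at 22.4, 51.2, 25.9, 15.3 and 24.6 CPM in hippocampus and 3.29, 4.67, 2.11, 4.81 and 2.32 CPM in cortex. SPAG6, a central-apparatus protein, was lower in 4 of 5 animals and did not pass: it was at 6.40, 31.6, 15.1, 2.05 and 1.09 CPM in hippocampus and 19.1, 18.7, 21.7, 21.5 and 19.1 CPM in cortex (-1.39 ± 0.59, adjusted p = 0.126), and it was called lower without animal 2 (-2.08, adjusted p = 0.0339).

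In the choroid plexus list 4 of 8 tested genes were higher and 0 lower (median 0.59). The median was 0.32 without animal 2 and 0.29 without animals 2 and 3. With a minimum mean of 10 counts as the only filter 13 genes were tested, 8 were higher and the median was 2.23. The added genes had 937 counts in hippocampus against 1 in cortex for FOLR1, 164 against 4 for CLDN2 and 124 against 19 for CLDN1. For SLC4A5 these were 90 against 44, and for KRT18 88 against 17. They passed this filter through the hippocampus, and for FOLR1 mostly through 1 library, so the higher median is no separate support. KL, the anti-ageing protein klotho, was at 35.9, 269, 41.4, 26.4 and 23.5 CPM in hippocampus and 4.56, 9.24, 6.70, 6.77 and 8.22 CPM in cortex (2.83 ± 0.43, adjusted p = 0.00172). CA12, a carbonic anhydrase, was at 20.6, 40.6, 32.9, 6.57 and 27.5 against 1.77, 5.36, 2.49, 2.56 and 1.97 CPM (3.14 ± 0.30, adjusted p = 0.000142). Hippocampus 2 was the highest library for both genes and for PRLR, and without animals 2 and 3 the log2 fold changes were 2.13 for KL (adjusted p = 0.013) and 2.98 for CA12 (adjusted p = 0.0183). The calcium pump ATP2B3 was called higher (0.61 ± 0.18, adjusted p = 0.0423), but not without animal 2, 3, 4 or 5 (adjusted p = 0.102, 0.0868, 0.106 and 0.147). FOLR1 and the tight-junction gene CLDN2, which had 164 counts in hippocampus and 4 in cortex, were too sparse in most libraries to be tested.

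Of 10 tested genes of neural progenitors and immature neurons 4 were higher and 1 lower (median 0.34), with 2 higher when the animal was not a block. Besides NEUROG2, the granule cell factor NEUROD1 was at 49.1, 35.6, 49.6, 57.2 and 71.9 CPM in hippocampus and 8.35, 12.3, 16.7, 15.8 and 21.1 CPM in cortex (1.84 ± 0.16, adjusted p = 7.29e-05), without overlap. The proliferation gene CENPF was higher (0.98 ± 0.17, adjusted p = 0.00356), and TOP2A, a topoisomerase of dividing cells, was called higher (1.03 ± 0.28, adjusted p = 0.0277) but not without animal 2 (adjusted p = 0.0823) or 3 (adjusted p = 0.0828). STMN1, a microtubule regulator, was lower, at 204, 244, 184, 224 and 182 CPM against 339, 662, 560, 667 and 535 CPM (-1.38 ± 0.14, adjusted p = 0.000203). DCX, the tubulin-binding protein of migrating young neurons, did not pass (-0.32 ± 0.20, adjusted p = 0.292).

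How many myelin genes were called depended on the fit, and their levels varied widely between animals. Of 11 tested, 7 were higher and 0 lower (median 0.75), and 4 were higher without animal 3, without animal 5 or without animals 2 and 3. In the fit without the animal as a block 1 was higher (median 0.80), and with all 15 control libraries 1 (median 0.73). UGT8, a lipid enzyme of oligodendrocytes, was at 53.8, 54.5, 102, 47.1 and 31.8 CPM in hippocampus and 25.1, 43.0, 39.6, 23.0 and 13.4 CPM in cortex (1.01 ± 0.15, adjusted p = 0.00158). MBP was at 1890, 2190, 3710, 1150 and 745 against 1520, 2000, 1340, 718 and 330 CPM (0.75 ± 0.20, adjusted p = 0.0239) and did not pass without animal 3 (adjusted p = 0.0794) or 5 (adjusted p = 0.102). With the myelin mean, to which MBP itself belongs, as a covariate its log2 fold change was -0.077. Levels of both genes overlapped between the regions, but each hippocampus was above the cortex of its own animal. ST18, a zinc finger factor, was also higher (1.59 ± 0.24, adjusted p = 0.0017). Among oligodendrocyte precursor genes 5 of 12 were higher and 0 lower (median 0.44). The count was 3 without animal 5, without the animal as a block or with all 15 control libraries, and 2 without animals 2 and 3. With the myelin mean as a covariate it was 0 (median 0.08). Higher in the main fit were PCDH15 (1.36 ± 0.18, adjusted p = 0.000787), VCAN (1.29 ± 0.16, adjusted p = 0.000569) and PTPRZ1 (0.84 ± 0.18, adjusted p = 0.00982).

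Astrocyte genes changed in part: 5 of 19 were higher and 2 lower, with a median of 0.09, or 3 and 0 without animals 2 and 3. GFAP, the intermediate filament of astrocytes, was at 1480, 1340, 1010, 826 and 967 CPM in hippocampus and 348, 389, 281, 305 and 223 CPM in cortex (1.85 ± 0.13, adjusted p = 2.35e-05). CD44, a hyaluronan receptor of fibrous astrocytes, was at 30.8, 15.3, 17.5, 6.84 and 27.0 against 1.77, 2.58, 3.45, 1.65 and 2.43 CPM (2.93 ± 0.28, adjusted p = 0.00014). The water channel AQP4 was at 322, 317, 316, 286 and 215 against 149, 193, 135, 147 and 119 CPM (0.97 ± 0.10, adjusted p = 0.000252). All 3 genes were without overlap, and ALDH1L1 (0.57 ± 0.13, adjusted p = 0.0117) and the gap-junction gene GJA1 (0.50 ± 0.09, adjusted p = 0.00387) were higher by less. SPARCL1, a synapse-promoting secreted protein, was lower (-0.91 ± 0.14, adjusted p = 0.00156), and glutamine synthetase (GLUL) was lower (-0.52 ± 0.11, adjusted p = 0.00885) but not without animal 5 (adjusted p = 0.0611). The glutamate transporters SLC1A2 (-0.18 ± 0.14, adjusted p = 0.388) and SLC1A3 (-0.18 ± 0.10, adjusted p = 0.218) did not pass.

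Of 7 tested homeostatic microglia genes 4 were higher and 0 lower (median 0.60). With the myelin mean as a covariate 0 passed, and the median was 0.87. CSF1R, the growth factor receptor on which microglia depend, was at 72.4, 59.3, 74.2, 55.3 and 48.1 CPM in hippocampus and 47.0, 37.4, 38.3, 35.3 and 36.9 CPM in cortex (0.66 ± 0.11, adjusted p = 0.00257). P2RY12 (0.60 ± 0.10, adjusted p = 0.00318) and TREM2 (1.10 ± 0.23, adjusted p = 0.00863) were higher without overlap, and GPR34 was called higher (0.53 ± 0.15, adjusted p = 0.0316) but not without animal 2, 3 or 5 (adjusted p = 0.111, 0.0747 and 0.0559). Without animals 2 and 3 none of the 7 passed, with log2 fold changes of 0.55 for CSF1R (adjusted p = 0.0921) and 0.53 for P2RY12 (adjusted p = 0.116).

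Of vessel and meninges genes about as large a share differed as of all genes tested. Of 9 mural cell genes 3 were lower and 0 higher (median -0.20), among them RGS5, a pericyte gene (-0.69 ± 0.09, adjusted p = 0.000714), ACTA2, smooth muscle actin (-0.72 ± 0.15, adjusted p = 0.00716), and the adhesion gene MCAM (-0.56 ± 0.16, adjusted p = 0.0295), which was not called without animal 1, 2, 4 or 5 (adjusted p = 0.0508, 0.108, 0.0673 and 0.113). Of 10 endothelial genes 1 was higher, the lipid transporter MFSD2A (0.48 ± 0.13, adjusted p = 0.0294), and 1 lower, ESAM (-0.51 ± 0.13, adjusted p = 0.0182). Neither kept the call without animal 2 (adjusted p = 0.102 and 0.0645) or 4 (adjusted p = 0.083 and 0.0536), MFSD2A also not without 3 (adjusted p = 0.106) and ESAM not without 5 (adjusted p = 0.0744). Of 14 fibroblast and meninges genes 1 was higher, the matrix gene FBLN1 (0.87 ± 0.17, adjusted p = 0.00576), and 2 were lower, the hyaluronan-degrading CEMIP (-0.95 ± 0.13, adjusted p = 0.000825) and the transporter SLC13A3 (-0.75 ± 0.19, adjusted p = 0.0205), which was not called without animal 2 (adjusted p = 0.0705) or 5 (adjusted p = 0.083). The count of lower genes in that list was 4 without animal 1 and 1 without animal 2 or 5. Without animals 2 and 3 no endothelial gene was called, and of the fibroblast and meninges genes 0 were higher and 1 lower.

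Pan-neuronal genes were lower or did not pass. Their mean was 8.21 to 8.44 log2 CPM in hippocampus and 8.70 to 8.84 in cortex, and its part in the falls of other neuronal genes was not tested. Of 15 tested, 7 were lower and 0 higher (median -0.46). The count was 10 without animal 1, 4 without animals 2 and 3, and 0 with all 15 control libraries (median -0.36), and 5 kept the call without any one animal. The RNA-binding proteins ELAVL4 (-1.27 ± 0.12, adjusted p = 0.000116) and RBFOX3 (-1.18 ± 0.15, adjusted p = 0.000649) and the neuronal enolase ENO2 (-0.95 ± 0.10, adjusted p = 0.000203) had no overlap. RBFOX3, the nuclear antigen NeuN, was at 13.4, 12.9, 14.5, 14.9 and 15.4 CPM in hippocampus and 47.8, 24.2, 31.2, 28.4 and 33.7 CPM in cortex. The growth-cone protein GAP43 was lower (-0.91 ± 0.19, adjusted p = 0.00922). MAP2 (0.04 ± 0.13, adjusted p = 0.87), a dendritic protein, and STMN2 (0.13 ± 0.18, adjusted p = 0.65) did not pass.

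GABAergic genes were mostly lower: of 20 tested, 12 were lower and 2 higher (median -0.59), and 10 of the 12 kept the call without any one animal. The lower genes were 7 without animals 2 and 3 and 6 with all 15 control libraries. GAD1, an enzyme that makes GABA, was at 228, 210, 162, 223 and 217 CPM in hippocampus and 313, 369, 355, 427 and 442 CPM in cortex (-0.87 ± 0.12, adjusted p = 0.000806). Parvalbumin (PVALB), a calcium buffer of fast-spiking interneurons, was at 8.00, 5.05, 4.38, 4.65 and 4.82 against 18.1, 18.1, 21.2, 31.1 and 18.9 CPM (-1.98 ± 0.21, adjusted p = 0.000243). The regions did not overlap in either gene, nor in LHX6, the transcription factor of interneurons from the medial ganglionic eminence (-1.38 ± 0.16, adjusted p = 0.000385), VIP (-1.34 ± 0.25, adjusted p = 0.00458) or the peptides CRH (-1.83 ± 0.21, adjusted p = 0.000403) and TAC3 (-1.81 ± 0.25, adjusted p = 0.000945). The somatostatin gene SST overlapped: it was at 24.5, 44.1, 33.9, 35.3 and 33.2 CPM in hippocampus and 24.8, 55.4, 47.8, 63.6 and 80.5 CPM in cortex (-0.60 ± 0.17, adjusted p = 0.0342) and was not called without animal 2, 3, 4 or 5 (adjusted p = 0.0664, 0.0811, 0.0877 and 0.121). The listed genes that were higher, PROX1 and calbindin (CALB1, 1.28 ± 0.17, adjusted p = 0.000738), are also known from granule cells of the dentate gyrus. CALB1 was at 216, 181, 254, 223 and 232 CPM in hippocampus and 58.1, 66.4, 91.6, 126 and 135 CPM in cortex.

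Of 5 tested striatal neuron genes 1 was lower, the dopamine receptor DRD1 (-1.68 ± 0.34, adjusted p = 0.00683), which was at 5.91, 4.36, 21.1, 7.12 and 6.03 CPM in hippocampus and 22.7, 30.5, 22.1, 28.0 and 22.5 CPM in cortex. With both animals 2 and 3 left out 2 were lower, and the log2 fold change of DRD1 was -1.93 (adjusted p = 0.00403). PDE10A, a phosphodiesterase of striatal neurons, was at 36.1, 28.7, 251, 33.5 and 32.8 against 87.8, 56.8, 66.4, 78.4 and 62.2 CPM (-0.56 ± 0.43, adjusted p = 0.406) and was lower without animal 3, whose hippocampus held 251 CPM (-1.10, adjusted p = 0.00098). Of 8 tested thalamic neuron genes 1 was higher, SYT9 (0.75 ± 0.18, adjusted p = 0.018), and 0 without animals 2 and 3: SYT9 did not pass without animal 3 (adjusted p = 0.0713) or 4 (adjusted p = 0.0521). The main fit called 22.8% of all genes tested, so 1 of 5 and 1 of 8 do not set these lists apart.

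Glutamate receptor genes differed by subunit. Of 24 tested, 8 were lower and 3 higher (median -0.24), or 4 and 1 without animals 2 and 3. With all 15 control libraries 5 were lower. GRIA1, an AMPA receptor subunit, was at 1030, 775, 993, 999 and 967 CPM in hippocampus and 245, 317, 262, 230 and 283 CPM in cortex (1.83 ± 0.14, adjusted p = 3.66e-05). GRIA4, another AMPA subunit, went the other way, with 53.4, 48.8, 48.7, 49.5 and 39.9 against 117, 129, 134, 184 and 185 CPM (-1.62 ± 0.16, adjusted p = 0.000145), and GRIA2 (0.15 ± 0.11, adjusted p = 0.378) and GRIA3 (-0.11 ± 0.11, adjusted p = 0.505) did not pass. The regions did not overlap in GRIA1 or GRIA4. Among kainate receptor subunits GRIK3 (-1.71 ± 0.26, adjusted p = 0.00162) and GRIK1 were lower and GRIK4 higher. Of metabotropic receptors, GRM8 (-1.80 ± 0.12, adjusted p = 1.9e-05), GRM2 (-1.34 ± 0.25, adjusted p = 0.00451) and GRM3 (-0.79 ± 0.13, adjusted p = 0.00223) were lower. The NMDA receptor subunit GRIN2B was called higher (0.63 ± 0.18, adjusted p = 0.0368), but not without animal 2, 3, 4 or 5 (adjusted p = 0.0543, 0.103, 0.0676 and 0.112). GRIN1 (-0.33 ± 0.29, adjusted p = 0.463), the subunit common to NMDA receptors, and GRIN2A (-0.22 ± 0.14, adjusted p = 0.294) did not pass.

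Among GABA receptor genes 6 of 14 were lower and 3 higher (median -0.36), and 0 were lower and 3 higher with all 15 control libraries (median -0.37). GABRA5, the subunit of extrasynaptic receptors that the hippocampus is known for, was at 239, 207, 214, 207 and 235 CPM in hippocampus and 76.2, 101, 91.8, 75.2 and 90.2 CPM in cortex (1.35 ± 0.11, adjusted p = 6e-05). GABRD, the subunit of another extrasynaptic receptor, was lower, at 43.7, 36.7, 32.4, 39.1 and 43.9 against 94.9, 103, 87.8, 128 and 106 CPM (-1.40 ± 0.11, adjusted p = 4.78e-05). Both separated the regions completely. GABRG1 (0.98 ± 0.14, adjusted p = 0.000981) and GABRA2 (0.61 ± 0.12, adjusted p = 0.00659) were higher, and GABRA4 (-1.03 ± 0.10, adjusted p = 0.000139) and GABRB2 (-1.0 ± 0.11, adjusted p = 0.000242) lower.

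**Figure D4:**
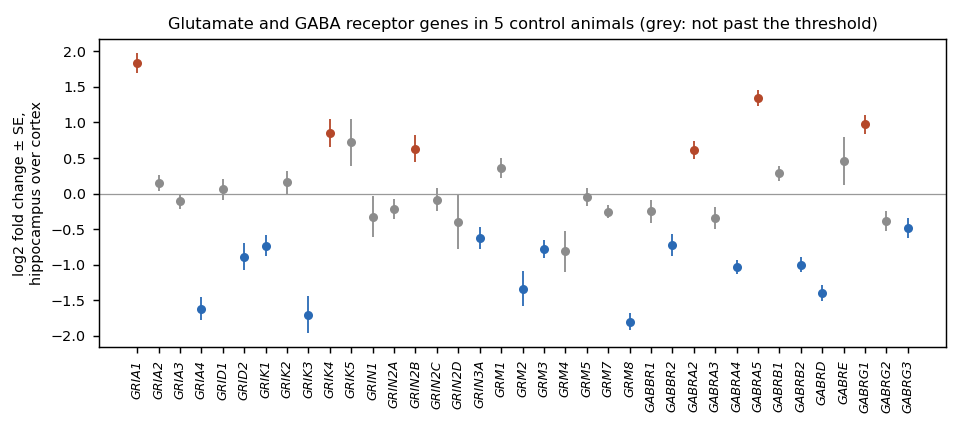
Log2 fold change ± SE of hippocampus over prefrontal cortex (y axis) for 37 of the 38 tested genes of glutamate and GABA receptors (x axis), in red where higher, blue where lower and grey where the threshold was not passed. GRIA1 (1.83) and GABRA5 (1.35) are highest, while GRM8 (-1.80) is lowest.

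Receptors for monoamines, acetylcholine and adenosine were lower in 10 of 25 tested genes and higher in 7 (median -0.30), with 4 higher without animals 2 and 3. Nicotinic subunits went both ways: CHRNA3, the usual partner of CHRNB4, was at 3.82, 4.13, 3.68, 2.87 and 2.41 CPM in hippocampus and 0.633, 0.298, 0.479, 0 and 0.116 CPM in cortex (3.41 ± 0.40, adjusted p = 0.00039), while CHRNA4 (-1.79 ± 0.23, adjusted p = 0.000653) and CHRNA2 (-1.67 ± 0.29, adjusted p = 0.00334) were lower. Serotonin receptors also went both ways. HTR1A was at 25.2, 17.7, 35.5, 24.5 and 24.2 against 8.48, 10.7, 7.08, 11.1 and 9.26 CPM (1.43 ± 0.21, adjusted p = 0.0014) and HTR2A at 29.2, 19.8, 20.1, 25.5 and 39.1 against 94.2, 81.1, 102, 109 and 108 CPM (-1.92 ± 0.14, adjusted p = 3.28e-05). HTR4 was higher (0.79 ± 0.15, adjusted p = 0.00618), and HTR1B (-1.84 ± 0.32, adjusted p = 0.00328) and HTR5A (-0.92 ± 0.13, adjusted p = 0.00107) were lower. The dopamine receptor DRD5 was lower as well, at 0.492, 0.23, 1.09, 2.87 and 0.723 against 6.20, 4.67, 7.56, 5.11 and 5.91 CPM (-2.61 ± 0.42, adjusted p = 0.00225). No overlap was seen in any of these 9 genes, nor in 5 of the 7 higher and 10 of the 10 lower genes of the list. The share over all called genes was not counted.

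Neuropeptide genes were lower in 9 of 22 tested and higher in 4 (median -0.29), with 4 lower when all 15 control libraries were fitted. Beside NTS and CARTPT, gastrin-releasing peptide (GRP) was higher, at 13.4, 7.23, 4.98, 8.49 and 11.0 CPM in hippocampus and 0.759, 1.89, 1.34, 2.26 and 1.39 CPM in cortex (2.49 ± 0.32, adjusted p = 0.000664). The natriuretic peptide NPPA was called higher (1.70 ± 0.51, adjusted p = 0.0405) but not without animal 2, 3 or 5 (adjusted p = 0.133, 0.118 and 0.0519). NXPH2, a neurexophilin, was lower (-2.04 ± 0.27, adjusted p = 0.000744), as were the peptide precursor VGF (-1.56 ± 0.22, adjusted p = 0.00107) and the interneuron peptides CRH, TAC3 and VIP given above. VGF was at 11.8, 11.6, 23.5, 19.3 and 22.1 CPM in hippocampus and 76.1, 31.3, 46.9, 44.4 and 65.8 CPM in cortex, without overlap.

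Voltage-gated potassium and HCN channel genes were lower in 12 of 27 tested and higher in 2 (median -0.62), or in 7 and 1 without animals 2 and 3 and in 6 and 0 with all 15 control libraries. KCNV1, a modulatory subunit, was at 37.2, 26.4, 51.6, 40.1 and 47.3 CPM in hippocampus and 180, 108, 194, 152 and 192 CPM in cortex (-2.03 ± 0.10, adjusted p = 6.62e-06), and KCNH7 at 25.7, 22.9, 20.5, 26.8 and 29.5 against 113, 99.9, 128, 113 and 136 CPM (-2.24 ± 0.12, adjusted p = 7.79e-06). KCNS1 and KCNH5 (-1.56 ± 0.21, adjusted p = 0.000761) were lower as well, and none of the 4 overlapped. The genes that were higher, KCNG2 (1.01 ± 0.19, adjusted p = 0.00478) and KCNS3 (0.88 ± 0.16, adjusted p = 0.00447), also code for modulatory subunits. Of 22 sodium and calcium channel genes 9 were lower and 2 higher (median -0.29), with 4 higher without animal 1. The lower genes were 4 without animals 2 and 3 and 5 with all 15 control libraries, where 1 was higher. SCN1A, a sodium channel, was at 308, 237, 247, 251 and 235 CPM in hippocampus and 611, 510, 568, 598 and 487 CPM in cortex (-1.12 ± 0.09, adjusted p = 6.75e-05). Among low-threshold calcium channels, CACNA1G was lower (-2.00 ± 0.31, adjusted p = 0.00182) and CACNA1H higher (1.26 ± 0.15, adjusted p = 0.000437). The presynaptic calcium channel CACNA1A was lower (-1.21 ± 0.29, adjusted p = 0.0162) but not without animal 2 (adjusted p = 0.0573).

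Of 16 tested steroid and nuclear hormone receptor genes 7 were lower and 5 higher (median 0.03), or 4 and 2 without animals 2 and 3. The receptors for corticosteroids went opposite ways. NR3C1, the glucocorticoid receptor, was at 67.5, 67.6, 80.0, 67.5 and 74.3 CPM in hippocampus and 165, 172, 169, 173 and 165 CPM in cortex (-1.24 ± 0.09, adjusted p = 3.48e-05), while NR3C2, the mineralocorticoid receptor given above, was higher. FKBP5, a chaperone that lowers the hormone affinity of the glucocorticoid receptor, was higher, at 13.0, 18.5, 14.5, 16.6 and 13.5 against 4.05, 9.93, 8.23, 6.02 and 3.94 CPM (1.29 ± 0.18, adjusted p = 0.00113). The levels in the regions did not overlap in any of the 3. Thyroid hormone receptors also differed, with THRB lower (-1.28 ± 0.12, adjusted p = 0.000126) and THRA higher (0.65 ± 0.10, adjusted p = 0.00199).

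Of 26 BMP and retinoid pathway genes 5 were higher and 6 lower (median -0.31), or 2 and 3 without animals 2 and 3, and 3 were higher with all 15 control libraries. CYP26B1, which degrades retinoic acid, was at 2.22, 1.95, 2.59, 3.15 and 2.77 CPM in hippocampus and 17.2, 7.85, 13.4, 21.1 and 20.3 CPM in cortex (-2.60 ± 0.18, adjusted p = 2.94e-05), and RARB, a receptor for it, at 8.62, 10.7, 11.0, 8.07 and 9.77 against 33.2, 30.0, 29.5, 32.6 and 33.9 CPM (-1.72 ± 0.13, adjusted p = 4.13e-05). The retinol dehydrogenase RDH10 (1.55 ± 0.21, adjusted p = 0.000856) and the retinoid X receptor RXRG (1.62 ± 0.17, adjusted p = 0.000251) were higher. RDH10 was highest in hippocampus 2. BMPER, which binds BMPs, was lower (-1.68 ± 0.17, adjusted p = 0.000176), and so was ID2, a BMP target (-1.26 ± 0.21, adjusted p = 0.00273). Of 18 Wnt pathway genes 4 were higher and 5 lower (median 0.13), and 3 were lower without animals 2 and 3, without the animal as a block or with all 15 control libraries. Among secreted regulators, RSPO3, an agonist, was at 13.5, 13.0, 29.6, 37.0 and 20.3 CPM in hippocampus and 5.70, 5.66, 6.79, 5.57 and 4.98 CPM in cortex (1.87 ± 0.23, adjusted p = 0.000488), and LGR5, a receptor for it, was higher (1.94 ± 0.37, adjusted p = 0.00541). DKK3 was higher (0.90 ± 0.13, adjusted p = 0.00121), while the inhibitor DKK1 (-2.69 ± 0.38, adjusted p = 0.00105) and the ligands WNT10B (-1.54 ± 0.17, adjusted p = 0.000259) and WNT7A (-1.01 ± 0.13, adjusted p = 0.000697) were lower.

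Axon guidance genes divided almost evenly: of 48 tested, 14 were higher and 13 lower (median 0.08), or 9 and 7 without animals 2 and 3, and 9 were higher with all 15 control libraries. The semaphorin receptors NRP1 and NRP2 were both higher. NRP1 was at 180, 154, 158, 211 and 232 CPM in hippocampus and 44.7, 41.8, 58.8, 39.7 and 48.4 CPM in cortex (2.00 ± 0.15, adjusted p = 3.28e-05), and NRP2 at 56.3, 49.3, 45.4, 67.6 and 61.5 against 19.9, 16.3, 15.8, 15.3 and 16.4 CPM (1.73 ± 0.13, adjusted p = 3.28e-05). One of their ligands, SEMA3C, was lower, at 27.6, 31.0, 31.4, 56.7 and 40.5 against 103, 163, 167, 185 and 197 CPM (-2.14 ± 0.13, adjusted p = 1.48e-05). Ephrin receptors split, with EPHA7 (1.67 ± 0.14, adjusted p = 8.21e-05) and EPHA6 (1.55 ± 0.11, adjusted p = 2.94e-05) higher and EPHA3 (-1.92 ± 0.16, adjusted p = 6.01e-05) lower, and the ligand EFNA5 was lower (-2.51 ± 0.28, adjusted p = 0.000292). None of these 7 genes overlapped between the regions, which held for 5 of the 14 higher and 7 of the 13 lower genes of the list. No share over all called genes was counted beside it. The count of higher genes kept without any one animal was 10 of 14, and that of lower genes 10 of 13.

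Cadherins and protocadherins were lower in 10 of 27 tested genes and higher in 3 (median -0.14), or in 5 without animal 1. CDH13 was at 68.1, 46.6, 54.7, 66.0 and 55.3 CPM in hippocampus and 152, 142, 180, 142 and 189 CPM in cortex (-1.47 ± 0.13, adjusted p = 8.69e-05), and CDH22 (-1.59 ± 0.14, adjusted p = 9.02e-05) and CDH18 (-1.33 ± 0.12, adjusted p = 0.000107) were lower too. CDH8 (0.76 ± 0.13, adjusted p = 0.00306) and PCDH18 (0.94 ± 0.15, adjusted p = 0.00205) were higher. Of 18 genes of the extracellular matrix and of perineuronal nets, the coats of fast-spiking interneurons, 3 were higher and 3 lower (median 0.01), with 5 higher without animal 1. COL25A1, a transmembrane collagen of neurons, was at 84.3, 75.1, 60.6, 101 and 83.7 CPM in hippocampus and 15.1, 10.0, 8.90, 8.57 and 11.3 CPM in cortex (2.91 ± 0.16, adjusted p = 8.33e-06). The proteoglycan BCAN was higher (0.74 ± 0.14, adjusted p = 0.00609), and ACAN, the core proteoglycan of the nets, was lower (-1.14 ± 0.29, adjusted p = 0.0206) but not without animal 3 (adjusted p = 0.055) or 5 (adjusted p = 0.0649). The number of lower genes in this list was 1 without animal 3 or 5 or with all 15 control libraries, and 0 without animals 2 and 3.

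Immediate early genes, which neurons switch on with activity, were lower in 6 of 12 tested and higher in 3 (median -0.46), with 1 higher when all 15 control libraries were fitted. NR4A1 was at 6.03, 3.10, 13.3, 7.39 and 4.94 CPM in hippocampus and 39.7, 18.8, 32.5, 43.2 and 38.8 CPM in cortex (-2.38 ± 0.24, adjusted p = 0.000165). NPAS4 was at 0.369, 0.23, 2.39, 0.958 and 0.241 against 6.08, 2.38, 9.19, 4.81 and 5.67 CPM (-2.87 ± 0.37, adjusted p = 0.00068), EGR2 was lower (-1.86 ± 0.24, adjusted p = 0.000686), and so was the scaffold gene HOMER1 (-0.95 ± 0.12, adjusted p = 0.000701). In NR4A1, NPAS4 and EGR2 hippocampus 3 was the highest of the hippocampal libraries, and in NPAS4 and EGR2 it lay within the cortical range. Higher in the hippocampus were the synaptic pentraxin NPTX2, at 48.1, 58.1, 59.1, 67.1 and 82.7 CPM against 19.2, 15.7, 34.6, 26.9 and 38.6 CPM (1.27 ± 0.15, adjusted p = 0.000491), NR4A3 (1.18 ± 0.23, adjusted p = 0.00638) and the neurotrophin BDNF (0.83 ± 0.16, adjusted p = 0.00652).

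Aquaporins were higher in 3 of 4 tested genes (median 0.98). Besides AQP3 and AQP4, AQP8 was called higher (0.98 ± 0.27, adjusted p = 0.0286) but not without animal 1, 2, 3 or 5 (adjusted p = 0.0508, 0.0653, 0.0979 and 0.0815), and the other tested member did not pass. Of 12 interferon and MHC genes 2 were higher and 0 lower (median 0.16), 1 without animals 2 and 3 or by DESeq2's test. Of all genes tested 11.3% were higher and 11.6% lower, so these counts do not set the list apart. MAMU-DMB, which codes for part of a loader of MHC class II, was at 22.9, 13.9, 11.4, 7.53 and 13.5 CPM in hippocampus and 1.65, 2.48, 1.34, 2.11 and 1.51 CPM in cortex (2.88 ± 0.26, adjusted p = 0.000106). Reads of MHC genes with near-identical copies could be split among them. PSMB9 was called higher (0.79 ± 0.22, adjusted p = 0.0309) but not without animal 2, 3 or 5 (adjusted p = 0.113, 0.0775 and 0.0939).

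The regional differences of the controls were also read in the irradiated animals, which share no sample with them. In TBI animals 6348 of 15095 genes differed between the regions, 42.1% of those tested, and in fWBI animals 4149 of 15258 (27.2%). Without fWBI animal 2, the count for hippocampus against prefrontal cortex in fWBI animals was 2638. Of the 3396 genes called in controls, 3379 were tested in TBI animals, where 3353 had the same sign, 3060 were called in the same direction and 0 in the opposite one. These were 90.1% of the control calls and 48.2% of the TBI calls. In fWBI animals 3372 were tested, 3362 had the same sign, 2724 were called in the same direction and 0 in the opposite one, or 80.2% of the control calls and 65.7% of the fWBI calls. Across the control-called genes, which are not independent replicates, Pearson's r of the log2 fold changes was 0.959 for TBI and 0.969 for fWBI, and across all genes tested in both it was 0.914 over 14749 genes and 0.93 over 14763.

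For single genes the values of the 3 groups of animals can be set side by side. AQP3 had a log2 fold change of 6.34 ± 0.20 in controls, 5.86 ± 0.15 in TBI and 5.56 ± 0.22 in fWBI animals. FREM3 was at -6.58 ± 0.25, -6.71 ± 0.18 and -6.58 ± 0.41, and KCNS1 at -4.81 ± 0.25, -5.45 ± 0.13 and -4.65 ± 0.25. PROX1 was at 2.18 ± 0.21, 1.63 ± 0.16 and 1.83 ± 0.15, and GRIA1 at 1.83 ± 0.14, 1.89 ± 0.07 and 1.72 ± 0.14. For the receptors of corticosteroids the values were -1.24 ± 0.09, -1.49 ± 0.07 and -1.20 ± 0.08 for NR3C1 and 0.90 ± 0.12, 0.36 ± 0.08 and 0.50 ± 0.11 for NR3C2. None of these genes passed edgeR's test of the interaction given below, NR3C2 included (adjusted p = 0.745 for TBI), so no change after irradiation was shown for them. The list members compared next were picked among genes called in controls, by the largest differences. That choice alone can raise agreement and make differences in other animals smaller, so the counts test neither. Of 161 such members, 157 were called in TBI animals, 159 had the sign of the controls and 86 had a smaller difference than in controls. In fWBI animals 143 of 160 were called, 160 had the sign of the controls and 114 had a smaller difference. The exceptions in sign were WNT9A and WNT7B. Neither of these passed in TBI animals, with -0.05 ± 0.20 for WNT9A and 0.19 ± 0.33 for WNT7B.

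**Figure D5:**
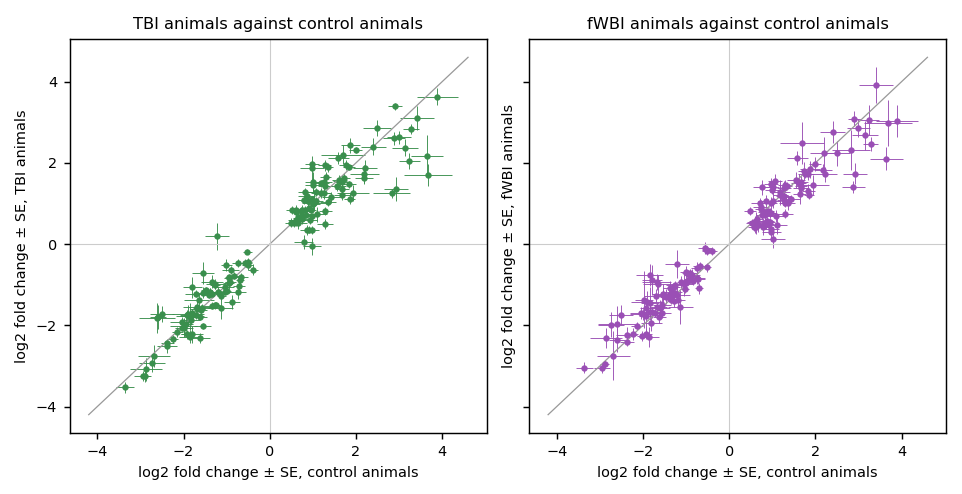
Log2 fold change ± SE of hippocampus over prefrontal cortex in control animals (x axis) against TBI (left) and fWBI animals (right, y axes) for the named list members, with the line of equal values. The sign is the same for 159 of 161 genes in TBI and for 160 of 160 in fWBI animals. The genes were picked among those called in controls.

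Whether the regional difference itself differed after irradiation was tested as an interaction over 30 libraries of 15 animals. For TBI against controls 0 of 16077 genes passed edgeR's test (0.00%), with 713 at an unadjusted p under 0.05. For fWBI against controls 1 passed (0.00622%), with 497 at an unadjusted p under 0.05. That gene was IQGAP2, a scaffold protein of the cytoskeleton: its log2 fold change of hippocampus over cortex was 2.80 ± 0.12 in controls, 2.67 ± 0.12 in TBI and 1.45 ± 0.14 in fWBI animals, a difference of -1.35 ± 0.19 for fWBI (adjusted p = 0.031). No gene passed without control animal 1, 2, 3 or 5, or when only fWBI and control animals were fitted, where the count was 0. The next smallest p-values for fWBI did not pass, among them those of WDR86 (1.57 ± 0.29, adjusted p = 0.251), MAMU-DMB (-1.49 ± 0.29, adjusted p = 0.28) and C1QL1 (-1.40 ± 0.28, adjusted p = 0.309). For TBI the smallest were COL23A1 (1.91 ± 0.37), BMP4 (-1.79 ± 0.37), IKBKE (0.62 ± 0.13), IL1RAPL2 (1.42 ± 0.30) and NTNG2 (1.01 ± 0.22), each with an adjusted p of 0.536.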

How the data were processed

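RNA was extracted from 100 mg of each frozen sample and libraries were made with a stranded kit after removal of ribosomal RNA, with RNA integrity numbers of 7.1 to 9.3, per the labels' protocols. The authors deposited raw read counts per Ensembl gene ID, and among the tools listed in the submitters' processing notes, with no version, are STAR, featureCounts, FastQC and DESeq2. Neither the build and annotation nor the strand setting of the counting is given in the sources used here, so no coordinates are printed and overlapping, antisense or near-identical genes may share reads. Of 30246 IDs 15769 were paired with a symbol, and IDs without one took 16.9 to 19.2% of the counts of a library.

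The deposited counts were fitted with edgeR 4.0.16 (R 4.3.3; limma 3.58.1, DESeq2 1.42.0 as alternatives) after TMM scaling and filterByExpr, by the quasi-likelihood test with animal as a block and Benjamini-Hochberg adjustment. The pairs come from the animal numbers in the labels. Deviations from the region means correlated between the libraries of an animal with a median of 0.46 (0.057 to 0.60, 3 of 5 pairs over 0.1), against -0.081 between animals, and no libraries of a group were alike to within sampling noise. Log2 CPM used a prior count of 2. The interaction was fitted over 30 libraries of 15 animals. On simulated data with 14781 genes for the control comparison, the fit recovered 91 of 100 genes changed 2-fold and 100 of 100 changed 4-fold. It made 12 false calls. Recovery in the real libraries, where hippocampus 2 and 3 stood apart and many more genes were called, was not tested.

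Of 725 symbols in 36 gene lists, 569 had an ID and 509 were tested. The rule for named genes took the 12 largest rises and falls among genes that had a symbol, averaged 1 CPM or more and went 1 way in all 5 animals, up to 4 called members of each list in each direction, and the 5 smallest interaction p-values. Some genes that the rule takes are not reported here. Other list members were named after their values were seen. The comparison, the lists and the tests were chosen with earlier results of these data known. Intervals of ratios of counts are exact at 95% and cover counting error only.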

Additional observations from a re-analysis of the deposited data

Results flagged for a closer look

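Differences of hippocampus minus cortex in log2 CPM were looked at for 59 results, to find any in which 1 of the 5 animals stood far from the others, and 4 did, where chance gives about 1 in 20. For the mean of striatal neuron genes animal 3 was at 1.70, against -0.90 to -0.38 in the other animals, the only pair with the hippocampus above the cortex. The mean of the neocortical projection neuron regulators was -0.50 in animal 2 and -0.27 to -0.22 in the others. MCHR2, the receptor for melanin-concentrating hormone, was at -3.75 in animal 1 and at -5.79 to -5.21 in the others. PTGS2, the inducible cyclooxygenase, was at -5.07 in animal 5 and at -3.89 to -3.58 in the others. Each of the last 3 results kept its direction in all 5 animals.

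The regional difference of IQGAP2 was smaller in fWBI than in control animals, by -1.35 on the log2 scale, in the test of the interaction itself, and was the 1 gene to pass it.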

How the results depend on the processing

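Against 3396 calls for hippocampus against prefrontal cortex in control animals (1674 higher, 1722 lower), leaving out 1 animal gave 2275 to 4016 calls, with 1112 to 2059 higher. A log2 fold minimum of 1 left 1220 calls (547 and 673), and the myelin mean as a covariate 977 (403 and 574), under which MBP went from 0.75 to -0.077, as a member of the list whose mean was the covariate. Under this covariate no gene of the oligodendrocyte, oligodendrocyte precursor, homeostatic microglia, endothelial or mural cell lists was called. With all 15 control libraries in the fit the calls were 2319, of which 1128 were lower. Leaving out animals 2 and 3, an alternative chosen after seeing the data, gave 1233 (548 and 685). DESeq2's test gave 3171 calls and limma-voom 4673. The cause of these changes was not tested. Of 185 named genes 164 kept the call without any 1 animal and 78 in every setting run.

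Without the animal as a block the paired control comparison gave 2845 calls (1333 and 1512), and that of hippocampus against prefrontal cortex in TBI animals 4911. That of hippocampus against prefrontal cortex in fWBI animals gave 3436, and 2638 to 4736 without 1 fWBI animal. The count of the interaction for fWBI, 1 gene, was 0 with only these treatments fitted and 0 to 1 without 1 control animal. FOLR1 and CLDN2, whose hippocampal counts came mostly from 1 library, were not tested under the main filter.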
